A study of Homo sapiens with 9 samples.

Results

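A set of 6 genes among the 58735 of the count table is described here: the architectural chromatin genes HMGA1 and HMGA2, and the oncofetal RNA-binding genes LIN28B, IGF2BP1, IGF2BP2 and IGF2BP3. They were found by their GENCODE 29 symbols, each of which matched 1 gene. HMGA2 was chosen by its log2 fold change with the PHF12 siRNA, so its values in comparisons with those libraries are given without a test. The other 5 were taken for their family or for their shared control by the microRNA let-7, with results of these data known. The libraries came from HEK293T cells, a line of human embryonic kidney origin transformed with adenovirus sequence and expressing SV40 large T antigen, kept in DMEM with fetal bovine serum. Cells received 10 nM SUDS3 siRNA, 10 nM PHF12 siRNA or 10 nM of the Silencer Select negative control siRNA with Lipofectamine RNAiMAX for 36 h, and each group had 3 libraries. Each target was addressed by 1 siRNA, so that a change made through the target and a change made through another transcript that the siRNA binds cannot be told apart. The labels do not say whether the 3 libraries of a group came from separate cultures, so the p-values measure the spread between these libraries only.

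PHF12, a zinc finger protein with PHD domains, and SUDS3 belong to SIN3 corepressor complexes, which remove acetyl groups from histones through their histone deacetylases. HMGA proteins bind AT-rich DNA through short AT-hooks and bend it. HMGA2 is high in embryonic cells and in many tumours and low in most adult tissues. LIN28B binds the precursors of let-7 and blocks their maturation, and let-7 in turn represses the mRNAs of LIN28B, HMGA2 and the IGF2BP family. IGF2BP proteins bind mRNAs in the cytoplasm and affect their stability, transport and translation.

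Library totals ran from 37962926 to 50946148 counts. Of the counts above 0, 96.1% were multiples of 4, so the number of sequenced fragments may be lower than these totals by that factor. SUDS3 stood at 21.1, 22.3 and 22.9 CPM (counts per 1000000 of the library total, with TMM scaling between libraries) in SUDS3 siRNA libraries, against 107.5, 114.0 and 111.8 CPM in control siRNA libraries. PHF12 stood at 27.9, 24.5 and 28.3 CPM in PHF12 siRNA libraries, against 50.3, 50.5 and 48.8 CPM in control siRNA libraries. Each siRNA therefore came with a lower level of its own target, to 19.9% of control for SUDS3 and to 54.0% for PHF12. SUDS3 also fell with the PHF12 siRNA (log2 fold change -0.46, SE 0.05, edgeR adjusted p = 6.83e-10), and PHF12 rose with the SUDS3 siRNA (0.30, SE 0.06, adjusted p = 7.19e-05). Of the 15 markers of an embryonic kidney line with neural features, 14 reached 1 CPM in some library, and PAX8 did not. The 16 markers of blood, liver, fibroblast and endothelial cells summed to 26.1 to 29.4 CPM in SUDS3 siRNA libraries, 22.7 to 24.9 CPM in PHF12 siRNA libraries and 16.5 to 18.3 CPM in control siRNA libraries. PTPRC, CD3E and HBB were at 0 in every library. Most of that sum was COL1A1, a collagen gene that rose with the SUDS3 siRNA (log2 fold change 0.82, edgeR adjusted p = 5.17e-09) and with the PHF12 siRNA (0.55, adjusted p = 9.46e-06). The part of these markers in the results below was not tested.

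All 6 genes passed the filter on low counts, and each called change below is an adjusted p under 0.05 in edgeR's quasi-likelihood test on all 18088 genes tested. With the SUDS3 siRNA, HMGA1 and LIN28B fell, IGF2BP1 and IGF2BP2 rose, and HMGA2 and IGF2BP3 did not pass the test. That is 2 higher and 2 lower of 6, where 38.7% of all genes tested were called, 19.6% higher and 19.2% lower. With the PHF12 siRNA, LIN28B, IGF2BP3, IGF2BP2 and HMGA1 fell and IGF2BP1 did not pass. That is 0 higher and 4 lower of the 5 genes other than HMGA2, where 31.9% of all genes tested were called, 14.8% higher and 17.1% lower. In the same edgeR fit the count of higher genes at an unadjusted p under 0.05 was 1, IGF2BP1, and DESeq2 called that gene too. Both knockdowns were set against the same 3 control siRNA libraries, so the 2 comparisons are not independent.

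HMGA2 (ENSG00000149948; GRCh38 chromosome 12, 65824131 to 65966295, plus strand) had 11.6, 11.1 and 12.3 CPM in PHF12 siRNA libraries, against 92.6, 89.8 and 92.0 CPM in control siRNA libraries. All 3 PHF12 siRNA libraries lay far below the lowest control library, at a mean of 11.7 ± 0.586 CPM against 91.4 ± 1.48 CPM (SD, n = 3 each), which is 12.8% of control. The PHF12 siRNA values rest on 560, 564 and 532 counts. The log2 fold change was -2.97 (SE 0.06), and 10 of the 18088 genes tested, HMGA2 among them, had one as low. These values chose HMGA2, so no test is given. In SUDS3 siRNA libraries HMGA2 had 99.3, 88.0 and 93.6 CPM, a range that holds all 3 control values. The log2 fold change with the SUDS3 siRNA was 0.03 (SE 0.05, edgeR adjusted p = 0.662), and it stayed between -0.01 and 0.09 when any 1 of the 9 libraries was left out. SUDS3 siRNA libraries therefore stood above PHF12 siRNA libraries by a log2 fold change of 3.00 (SE 0.06), again a description.

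HMGA1 (ENSG00000137309; chromosome 6, 34236873 to 34246231, plus strand), the paralog of HMGA2 that many proliferating cells express, changed in the other pattern. It had 240.2, 223.5 and 208.1 CPM in SUDS3 siRNA libraries, 286.3, 272.2 and 258.8 CPM in PHF12 siRNA libraries, and 313.1, 304.1 and 290.0 CPM in control siRNA libraries. The 3 groups did not overlap, with the SUDS3 siRNA lowest and the control siRNA highest. In each group the level fell from replicate 1 to replicate 3. HMGA1 fell with the SUDS3 siRNA to 223.9 ± 16.1 CPM, against 302.4 ± 11.6 CPM with the control siRNA (SD, n = 3 each; log2 fold change -0.43, SE 0.04, edgeR adjusted p = 6.43e-11). With the PHF12 siRNA the fall was smaller, to 272.4 ± 13.7 CPM (log2 fold change -0.15, SE 0.04, edgeR adjusted p = 0.00335). This smaller fall no longer passed without PHF12 siRNA replicate 3 (log2 fold change -0.12, adjusted p = 0.0550) or with limma on the deposited TPM (-0.15, adjusted p = 0.104). The 2 knockdowns differed directly, with HMGA1 lower with the SUDS3 siRNA than with the PHF12 siRNA (log2 fold change -0.28, SE 0.04, edgeR adjusted p = 3.12e-07). HMGA1 has 8 annotated processed pseudogenes in the table, whose total counts over the 9 libraries were at most 188, against 107148 for HMGA1. Reads shared between HMGA1 and these copies cannot be told apart.

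**Figure D1:**
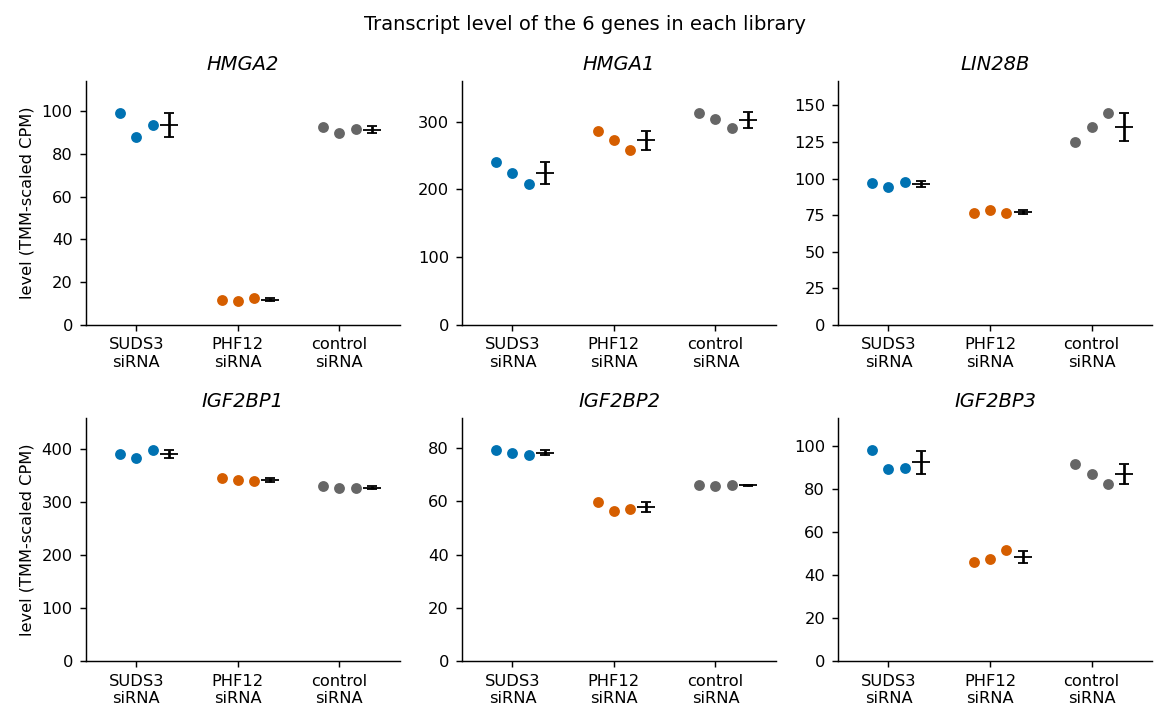
Transcript level of each gene (TMM-scaled CPM, axis from 0) in the 3 libraries with SUDS3 siRNA, PHF12 siRNA and control siRNA, 1 point per library, with the group mean and SD in black. HMGA2 sits at 11.1 to 12.3 CPM with the PHF12 siRNA and at 88.0 to 99.3 CPM in the other 6 libraries.

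LIN28B (ENSG00000187772; chromosome 6, 104936616 to 105083332, plus strand) fell in both knockdowns. It had 97.0, 94.3 and 98.0 CPM in SUDS3 siRNA libraries, 76.3, 78.3 and 76.7 CPM in PHF12 siRNA libraries, and 125.3, 135.4 and 145.0 CPM in control siRNA libraries. Every knockdown library was below every control library, and the PHF12 siRNA libraries were the lowest. The fall with the SUDS3 siRNA was to 96.4 ± 1.91 CPM against 135.2 ± 9.83 CPM (SD, n = 3 each; log2 fold change -0.49, SE 0.05, edgeR adjusted p = 6.53e-11). The fall with the PHF12 siRNA was to 77.1 ± 1.06 CPM, or 57.0% of control (log2 fold change -0.81, SE 0.05, edgeR adjusted p = 9.31e-17). LIN28B was higher with the SUDS3 siRNA than with the PHF12 siRNA (log2 fold change 0.32, SE 0.05, edgeR adjusted p = 3.36e-07). Its paralog LIN28A, the other protein that blocks let-7 maturation, had 12 counts in all 9 libraries together and was not tested.

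IGF2BP3 (ENSG00000136231; chromosome 7, 23310209 to 23470467, minus strand) changed with the PHF12 siRNA. It had 46.1, 47.8 and 51.9 CPM in PHF12 siRNA libraries, against 91.8, 87.0 and 82.5 CPM in control siRNA libraries. The PHF12 siRNA group averaged 48.6 ± 2.96 CPM against 87.1 ± 4.66 CPM (SD, n = 3 each), and the groups did not overlap (log2 fold change -0.84, SE 0.05, edgeR adjusted p = 2.41e-15). With the SUDS3 siRNA it had 98.5, 89.3 and 89.8 CPM, which overlaps the control range (log2 fold change 0.09, SE 0.05, edgeR adjusted p = 0.202). The direct comparison of SUDS3 siRNA with PHF12 siRNA gave a log2 fold change of 0.93 (SE 0.05, edgeR adjusted p = 6.90e-17). MALSU1, which encodes a mitochondrial ribosome assembly factor, overlaps the 3′ end of IGF2BP3 on the opposite strand. It did not pass the test against control with the SUDS3 siRNA (log2 fold change 0.03, edgeR adjusted p = 0.719) or with the PHF12 siRNA (-0.12, adjusted p = 0.152). MALSU1 was higher with the SUDS3 siRNA than with the PHF12 siRNA (log2 fold change 0.15, SE 0.06, edgeR adjusted p = 0.0414). That call ended with upper-quartile scaling, no filter on low counts, or without any 1 of the PHF12 siRNA or SUDS3 siRNA libraries (adjusted p = 0.0575 to 0.280). The libraries were stranded, per the labels' protocols, but how strand was treated in counting is not stated in the labels, so reads of the overlapping stretch may be assigned to either gene.

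IGF2BP1 (ENSG00000159217; chromosome 17, 48997412 to 49055650, plus strand) was higher with the SUDS3 siRNA. It had 390.6, 383.0 and 399.2 CPM in SUDS3 siRNA libraries, against 330.3, 326.1 and 326.0 CPM in control siRNA libraries. The means were 390.9 ± 8.12 CPM and 327.5 ± 2.47 CPM (SD, n = 3 each; log2 fold change 0.26, SE 0.03, edgeR adjusted p = 6.40e-09). The PHF12 siRNA libraries had 346.3, 341.8 and 339.3 CPM, all above the highest control library but by little. That difference did not pass in edgeR (log2 fold change 0.064, SE 0.03, adjusted p = 0.0934) and passed in DESeq2 (log2 fold change 0.076, adjusted p = 0.0169). IGF2BP1 was higher with the SUDS3 siRNA than with the PHF12 siRNA (log2 fold change 0.19, SE 0.03, edgeR adjusted p = 1.01e-06).

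IGF2BP2 (ENSG00000073792; chromosome 3, 185643739 to 185825056, minus strand), the member of its family that adult tissues keep expressing, moved in opposite directions. It had 79.3, 77.9 and 77.4 CPM in SUDS3 siRNA libraries, 59.8, 56.4 and 57.0 CPM in PHF12 siRNA libraries, and 65.9, 65.7 and 66.2 CPM in control siRNA libraries. The 3 groups did not overlap. IGF2BP2 rose with the SUDS3 siRNA (78.2 ± 1.01 CPM against 65.9 ± 0.237 CPM, SD, n = 3 each; log2 fold change 0.25, SE 0.05, edgeR adjusted p = 7.27e-05). It fell with the PHF12 siRNA (57.7 ± 1.81 CPM; log2 fold change -0.19, SE 0.05, edgeR adjusted p = 0.00195). The direct comparison gave a log2 fold change of 0.44 for SUDS3 siRNA over PHF12 siRNA (SE 0.05, edgeR adjusted p = 1.25e-09). Over the 5 genes other than HMGA2, 4 were higher and 1 was lower with the SUDS3 siRNA than with the PHF12 siRNA, where 43.9% of all genes tested were called, 22.7% higher and 21.1% lower.

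**Figure D2:**
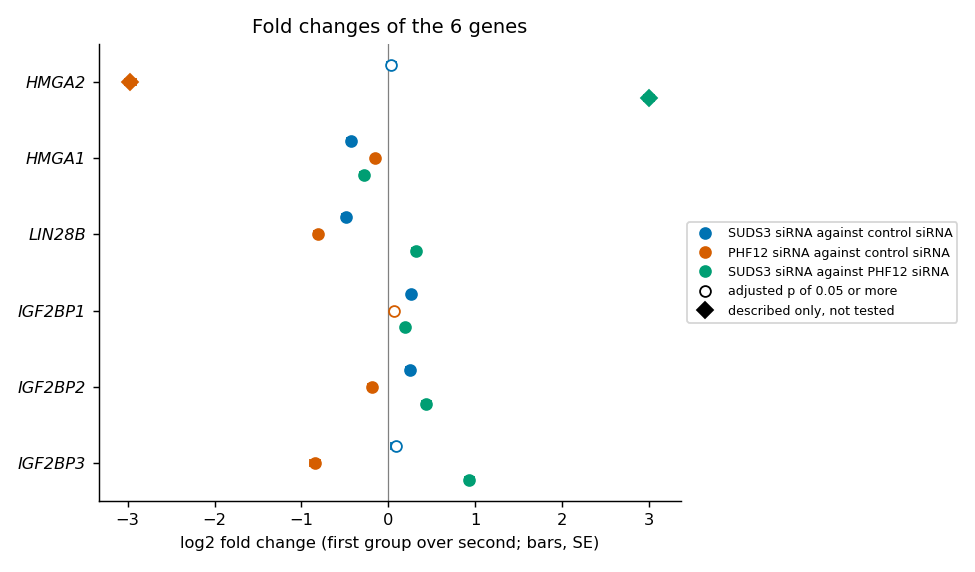
Fold change of each gene (log2, first group over second, bars for the SE) in the 3 comparisons; open circles are adjusted p of 0.05 or more and diamonds are described without a test. HMGA2 stands at -2.97 with the PHF12 siRNA, while the other genes lie between -0.84 and 0.26 in both comparisons with control.

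Levels of different genes were compared per length, as CPM per kilobase of the principal transcript. In control siRNA libraries HMGA1 was the highest at 140.1 ± 5.38, followed by IGF2BP1 at 39.6 ± 0.299 and LIN28B at 24.6 ± 1.78 CPM per kilobase (SD, n = 3). IGF2BP3 at 20.5 ± 1.10 and HMGA2 at 20.4 ± 0.331 CPM per kilobase did not differ beyond their spread, and IGF2BP2 was the lowest at 17.9 ± 0.0643. In SUDS3 siRNA libraries LIN28B was the lowest at 17.5 ± 0.348 CPM per kilobase, and IGF2BP3 (21.8 ± 1.22), IGF2BP2 (21.2 ± 0.275) and HMGA2 (20.9 ± 1.27) lay within their spread of each other. In PHF12 siRNA libraries HMGA2 was the lowest at 2.62 ± 0.131 CPM per kilobase, below IGF2BP3 at 11.4 ± 0.697. The order depends on the length used. Per kilobase of all annotated exons, HMGA2 was the lowest of the 6 in control siRNA libraries too, at 5.94 ± 0.0960, because its exons join to 15403 bases against 4473 bases of the principal transcript.

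The let-7 family is shown because it was the reason that 5 of the genes stand beside HMGA2. RefSeq holds 9 mature members for human, from 12 loci, with 1 shared seed. The seed (bases 2 to 8, in capitals) pairs with the bases CTACCTC in a 3′ UTR. The sequences below are from RefSeq on GRCh38.p14, 5′ to 3′:
hsa-let-7a-5p, chr9:94175962-94175983 (+): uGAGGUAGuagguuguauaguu
hsa-let-7d-5p, chr9:94178841-94178862 (+): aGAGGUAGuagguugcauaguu
hsa-let-7g-5p, chr3:52268336-52268357 (-): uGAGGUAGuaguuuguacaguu
hsa-miR-98-5p, chrX:53556299-53556320 (-): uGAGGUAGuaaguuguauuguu
The 4 differ outside the seed and, in let-7d, at the base before it. Mature microRNAs were not measured in these poly-A libraries.

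Matches to the seed were counted on the transcript strand in the 3′ UTRs of GENCODE 29. Of the 13767 genes tested with an annotated 3′ UTR, 11.2% hold the match in their longest one. LIN28B and IGF2BP1 hold 4 each, and HMGA1, IGF2BP2 and IGF2BP3 hold 1 each. HMGA2 depends on the isoform: the 3′ UTR of the principal transcript HMGA2-204 (3003 bases) holds 4, while the longest annotated one, that of HMGA2-210 (7421 bases), lies upstream in the gene and holds 0. Of 13651 principal 3′ UTRs, 12 hold 4 or more, HMGA2, LIN28B and IGF2BP1 among them. Since the genes were chosen for let-7 control, these counts are no finding. The 4 matches of HMGA2-204 (in capitals) and the match nearest to the stop codon in each other gene are shown with the flanking transcript sequence, from GENCODE 29 on GRCh38, 5′ to 3′ on the transcript:
HMGA2 base 21, chr12:65963302-65963325 (+): acgttcgatttCTACCTCagcagc
HMGA2 base 1256, chr12:65964537-65964560 (+): actactcaataCTACCTCtgaatg
HMGA2 base 1668, chr12:65964949-65964972 (+): cttgcaaagacCTACCTCcagact
HMGA2 base 2521, chr12:65965802-65965825 (+): aaaacacactaCTACCTCttaagt
LIN28B base 44, chr6:105078816-105078839 (+): ggttgcaaagtCTACCTCatgcaa
IGF2BP1 base 1632, chr17:49051065-49051088 (+): tgcgaagtaaaCTACCTCaaggta
IGF2BP2 base 1304, chr3:185644215-185644238 (-): cacagaagaagCTACCTCaggtgt
IGF2BP3 base 560, chr7:23311790-23311813 (-): tttttactcaaCTACCTCaggtat
HMGA1 base 960, chr6:34245833-34245856 (+): ctgttcacaaaCTACCTCtggaca
Bases are counted from the first base after the stop codon. An adenine follows the match, as in the stronger 8-base form of a site, in 1 of the 4 of HMGA2-204, 2 of 4 in LIN28B, 3 of 4 in IGF2BP1, and the lone matches of IGF2BP2 and IGF2BP3, but not that of HMGA1. With the PHF12 siRNA, the genes with 4 matches stood at 12.8% (HMGA2, chosen by this fall), 57.0% (LIN28B) and 104.6% (IGF2BP1) of control. Those with 1 match stood at 55.8% (IGF2BP3), 87.6% (IGF2BP2) and 90.1% (HMGA1). With the SUDS3 siRNA, HMGA2, LIN28B and IGF2BP1 stood at 102.4%, 71.3% and 119.4% of control. IGF2BP3, IGF2BP2 and HMGA1 stood at 106.3%, 118.6% and 74.1% there. The part of let-7 in these levels was not tested.

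An earlier scan of the same fold changes had found the hexamer AATCAC to lead the 3′ UTRs of genes lower with the PHF12 siRNA, and TACATT those of genes lower with the SUDS3 siRNA. Neither hexamer was matched to an siRNA, whose sequences were not used here. AATCAC is in 30.7% and TACATT in 40.9% of the 13767 longest 3′ UTRs. Of the genes with AATCAC, 38.2% were lower with the PHF12 siRNA, against 13.6% of those without it. Of the genes with TACATT, 31.4% were lower with the SUDS3 siRNA, against 17.2% of those without it. Across siRNAs, 26.1% of genes with AATCAC and 21.6% of those without it were lower with the SUDS3 siRNA, and 26.4% of genes with TACATT and 17.5% of those without it were lower with the PHF12 siRNA. Both hexamers were picked for these differences, which therefore support nothing. For the let-7 match, 25.0% of genes with it and 20.7% of those without it were lower in the PHF12 siRNA comparison, and 25.0% and 22.8% in the SUDS3 siRNA comparison.

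AATCAC occurs 5 times in the 3′ UTR of HMGA2-204 and 7 times in that of HMGA2-210. Of all longest 3′ UTRs, 0.719% hold 5 or more, and of all principal ones 0.579%. These shares make no allowance for length. The median is 1370 bases for the longest and 1101 bases for the principal 3′ UTRs, against 7421 bases for HMGA2-210 and 3003 bases for HMGA2-204. LIN28B and IGF2BP3 hold 2 each, IGF2BP1 holds 1, and HMGA1 and IGF2BP2 hold 0. TACATT occurs 1 time in HMGA2-204 and 8 times in HMGA2-210, 1 time each in LIN28B and IGF2BP3, and 0 times in HMGA1, IGF2BP1 and IGF2BP2. Of the genes with AATCAC, HMGA2, IGF2BP3 and LIN28B had log2 fold changes of -2.97, -0.84 and -0.81 with the PHF12 siRNA, and IGF2BP1 did not pass. HMGA1 and IGF2BP2, which hold no AATCAC, fell with the PHF12 siRNA by 0.15 and 0.19 on the log2 scale. Of the genes with TACATT, LIN28B fell by 0.49 with the SUDS3 siRNA, and HMGA2 and IGF2BP3 did not pass the test there. HMGA1 fell with the SUDS3 siRNA without a TACATT in its 3′ UTR, and IGF2BP1 and IGF2BP2, also without it, rose. The part of the hexamers in these changes was not tested. Gene counts do not separate the 2 HMGA2 isoforms. The AATCAC matches of HMGA2-204, LIN28B and IGF2BP3 are shown in capitals, with the same source and counting of bases:
HMGA2 base 157, chr12:65963438-65963460 (+): gggtggggagaAATCACataacc
HMGA2 base 186, chr12:65963467-65963489 (+): aggactatattAATCACcttctt
HMGA2 base 367, chr12:65963648-65963670 (+): tgggtttagtcAATCACtgcact
HMGA2 base 1558, chr12:65964839-65964861 (+): taattttcctcAATCACactaca
HMGA2 base 2264, chr12:65965545-65965567 (+): tcactgttgtgAATCACcaaagg
LIN28B base 141, chr6:105078913-105078935 (+): ttaaacagacaAATCACtctaag
LIN28B base 4102, chr6:105082874-105082896 (+): actacctcttgAATCACatctat
IGF2BP3 base 89, chr7:23312262-23312284 (-): cccctatccagAATCACatgcac
IGF2BP3 base 1571, chr7:23310780-23310802 (-): tttaaaaaaaaAATCACtgcctc
The second LIN28B stretch also holds its let-7 match at base 4092, in lower case here, 10 bases upstream of the hexamer. A match is a description of the letters and does not show that an siRNA or a microRNA acts there.

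**Figure D3:**
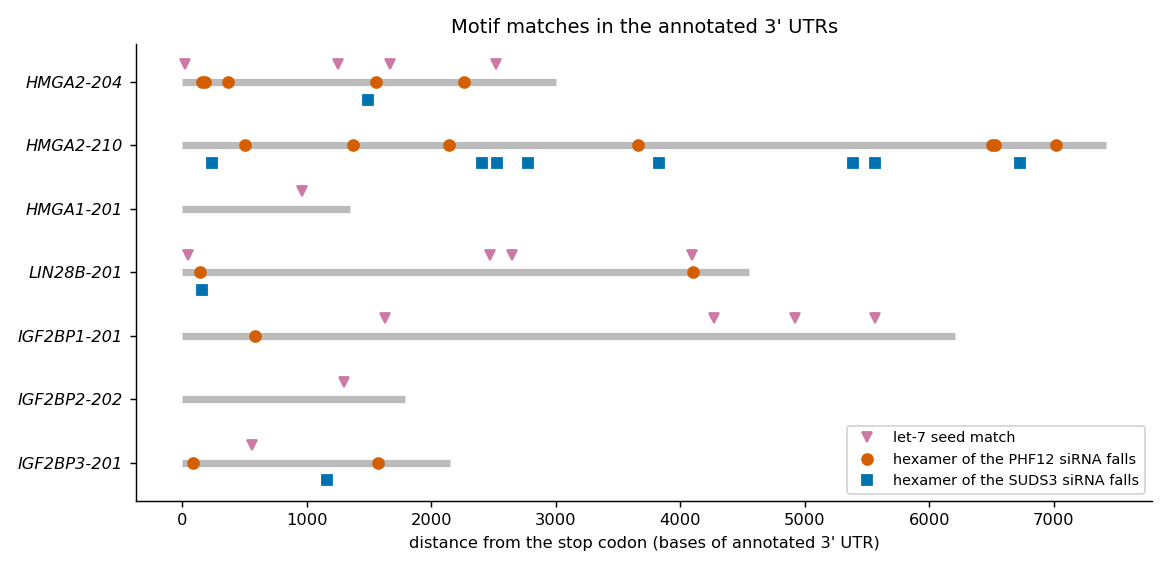
Position of let-7 seed matches and of the 2 hexamers along the annotated 3′ UTRs, in bases from the stop codon, with grey bars for the length of each 3′ UTR. HMGA2 is drawn for the principal transcript (HMGA2-204, 3003 bases) and for the one with the longest 3′ UTR (HMGA2-210, 7421 bases), which holds no let-7 match.

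The tested genes near HMGA2 did not all move with it. Within 500 kb of HMGA2 or overlapping it the table holds 27 genes, of which 7 were tested. With the PHF12 siRNA, GRIP1, a scaffold of glutamate receptors, fell to 4.96 CPM against 10.2 CPM in control siRNA libraries (log2 fold change -1.05, SE 0.13, edgeR adjusted p = 2.68e-08). MSRB3, a methionine sulfoxide reductase and the tested gene just upstream, rose to 24.2 CPM against 19.4 CPM (log2 fold change 0.32, SE 0.08, edgeR adjusted p = 0.00220). LLPH, LLPH-DT, TMBIM4, IRAK3 and the DNA helicase gene HELB did not pass with the PHF12 siRNA, although HELB did without PHF12 siRNA replicate 2 (log2 fold change -0.28, adjusted p = 0.0488). Over all genes tested 31.9% were called with the PHF12 siRNA. LLPH-DT and IRAK3 were scarce, at means of 0.55 and 0.60 CPM in control siRNA libraries. Their log2 fold changes with the PHF12 siRNA had SEs of 0.68 and 0.70, so a moderate fall in them could be missed. HELB fell with the SUDS3 siRNA (log2 fold change -0.72, SE 0.12, edgeR adjusted p = 3.94e-06). It was the only one of the 7 called there, where 38.7% of all genes tested were called. RPSAP52, a pseudogene transcript that overlaps the start of HMGA2 on the opposite strand, had 0 counts in all 9 libraries. The other genes that overlap HMGA2 had at most 32 counts in total.

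Among the protein-coding genes with an average log2 CPM of at least 1, 11729 were compared with each of the 6 by the distance of mean-centred log2 CPM over the 9 libraries. Of the 5 nearest to HMGA2, 4 are described here: UBE2E2, a ubiquitin-conjugating enzyme (distance 0.954), the death-domain adaptor CRADD (1.37), DDAH1, which breaks down methylated arginine (1.40), and the protein kinase PRKX (1.47). Their log2 fold changes with the PHF12 siRNA were -2.30, -2.11, -2.05 and -1.81, smaller in size than that of HMGA2. With the SUDS3 siRNA they were 0.12, -0.07, -0.07 and 0.40, beside 0.03 for HMGA2, so PRKX was less like it there.

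The other members had nearer partners. For LIN28B these were PKN2, a protein kinase (distance 0.0744), and GFPT1, an enzyme of hexosamine synthesis (0.225). PKN2 had log2 fold changes of -0.49 with the SUDS3 siRNA and -0.83 with the PHF12 siRNA, beside -0.49 and -0.81 for LIN28B. For IGF2BP3 they were the cholesterol-esterifying enzyme SOAT1 (0.146) and KIAA1143 (0.195). For IGF2BP1 they were the actin-associated PALLD (0.0587) and SRP54 of the signal recognition particle (0.0670). For IGF2BP2 they were CDS2 of phospholipid synthesis (0.0571) and the ubiquitin-conjugating enzyme UBE2G1 (0.0728), and for HMGA1 ANAPC15 of the anaphase-promoting complex (0.116) and NFYC of the CCAAT-binding factor NF-Y (0.145). Among the 6 themselves IGF2BP1 and IGF2BP2 were the closest (0.364) and HMGA1 and HMGA2 the farthest apart (4.35). The distances take in the PHF12 siRNA libraries, whose values chose HMGA2, so its large distances follow from that choice. Among pairs without HMGA2, HMGA1 and IGF2BP3 were the farthest apart (1.51). The partner genes were picked for likeness, so their fold changes are a description.

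Genes with reported let-7 control were counted from a list of 37, of which 35 were tested and 29 of those are not among the 6. With the SUDS3 siRNA 8 of the 29 rose, 18 fell and 3 did not pass, with a median log2 fold change of -0.18 against -0.02 over all genes tested. Of all genes tested 38.7% were called there, 19.6% higher and 19.2% lower. TGFBR1, a TGF-beta receptor, fell by 1.74 on the log2 scale (edgeR adjusted p = 7.68e-22), the E2F family gene E2F5 by 1.55 (adjusted p = 2.52e-19) and NRAS by 0.78 (adjusted p = 2.28e-18). With the PHF12 siRNA 10 rose, 13 fell and 6 did not pass, with a median of -0.02 against -0.00 over all genes tested. Of all genes tested 31.9% were called there, 14.8% higher and 17.1% lower. The phosphatase gene CDC25A, which drives entry into S phase, fell to 105.7 CPM against 249.1 CPM (log2 fold change -1.24, SE 0.04, edgeR adjusted p = 4.58e-25), and with SUDS3 siRNA it rose to 301.5 CPM (0.28, SE 0.04, adjusted p = 5.98e-08). The cyclin gene CCND2 fell to 70.9 CPM with the PHF12 siRNA against 129.7 CPM (log2 fold change -0.87, SE 0.04, edgeR adjusted p = 1.65e-18).

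The let-7 matches and the hexamers split this list of 29 as follows. Of the 22 genes with a let-7 match in the longest 3′ UTR, 10 rose and 7 fell with the PHF12 siRNA, and of the 7 without one 6 fell and 1 did not pass. In the SUDS3 siRNA comparison 8 rose and 13 fell of the 22, and 5 of the 7 fell and 2 did not pass. Of the 17 genes with AATCAC, 11 fell with the PHF12 siRNA, and of the 12 without it 2 fell. With the SUDS3 siRNA 11 of the 17 and 7 of the 12 fell. Of the 23 genes with TACATT, 17 fell with the SUDS3 siRNA, and of the 6 without it 1 fell. In the PHF12 siRNA comparison 11 of the 23 and 2 of the 6 fell. The hexamers were picked from these fold changes, so the splits by them support nothing. Over all genes tested, 19.6% were higher and 19.2% lower in the SUDS3 siRNA comparison. In the PHF12 siRNA comparison 14.8% were higher and 17.1% lower.

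**Figure D4:**
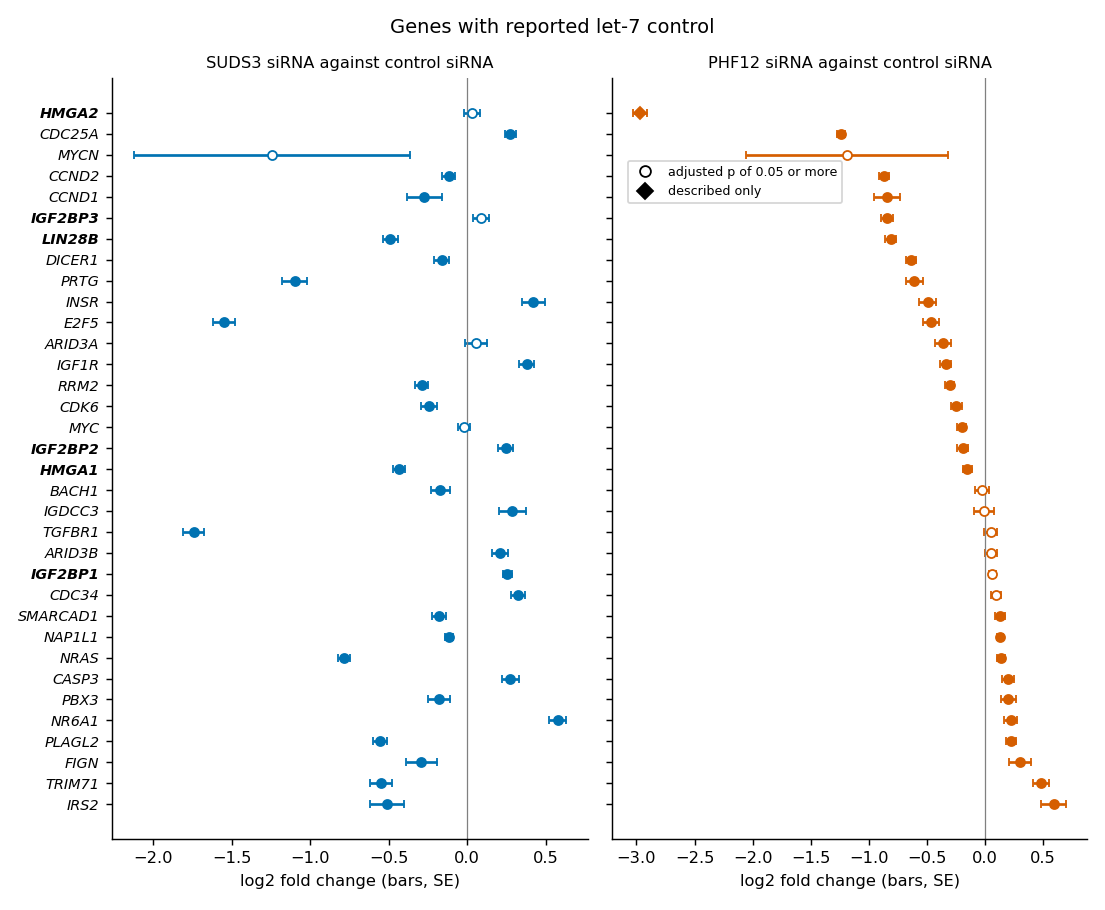
Fold change (log2, bars for the SE) of tested genes with reported let-7 control (1 of the 35 is not shown), ordered by the PHF12 siRNA comparison, in SUDS3 siRNA against control siRNA (left) and PHF12 siRNA against control siRNA (right). The 6 genes described here are in bold, and HMGA2 is the lowest at -2.97 with the PHF12 siRNA and at 0.03 with the SUDS3 siRNA.

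Among genes that process let-7 or act with it, other than LIN28B, 20 were tested. With the SUDS3 siRNA 7 rose, 5 fell and 8 did not pass, and with the PHF12 siRNA 6 rose, 1 fell and 13 did not pass. Over all genes tested 38.7% and 31.9% were called in these comparisons, and the list's 12 and 7 of 20 are read against those shares. The 1 fall was that of DICER1, which cuts let-7 precursors and is itself a let-7 target, to 90.7 CPM with the PHF12 siRNA against 141.1 CPM with the control siRNA (log2 fold change -0.64, SE 0.05, edgeR adjusted p = 9.95e-14). DICER1 also fell with the SUDS3 siRNA (log2 fold change -0.16, SE 0.05, edgeR adjusted p = 0.00440), though not without control siRNA replicate 3 (-0.12, adjusted p = 0.0545) or with limma on TPM (adjusted p = 0.0901), and it was higher there than with the PHF12 siRNA (0.47, SE 0.05, adjusted p = 9.20e-11). Its 3′ UTR holds 4 AATCAC, 4 TACATT and 0 let-7 matches. TUT7, a uridylyl transferase that marks let-7 precursors for decay, rose with the SUDS3 siRNA (log2 fold change 0.39, edgeR adjusted p = 1.60e-05) and with the PHF12 siRNA (0.30, adjusted p = 0.000649). TUT4, its paralog, passed with the PHF12 siRNA (log2 fold change 0.12, edgeR adjusted p = 0.0396), a call that ended with limma on TPM and without control siRNA replicate 1 or 2 or any 1 of the PHF12 siRNA libraries (adjusted p = 0.0619 to 0.203). The decay nuclease DIS3L2 passed in neither knockdown. The silencing scaffolds TNRC6A and TNRC6B rose in both, by 0.32 and 0.24 with the SUDS3 siRNA and by 0.27 and 0.28 with the PHF12 siRNA, and TNRC6C passed in neither.

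Of the Argonaute genes, which carry microRNAs, AGO1 (log2 fold change 0.43, edgeR adjusted p = 2.52e-10), AGO2 (0.22, adjusted p = 3.26e-05) and AGO4 (0.19, adjusted p = 0.0278) rose with the SUDS3 siRNA. AGO3 did not pass, and the call of AGO4 ended with upper-quartile scaling and without control siRNA replicate 2 or 3 or SUDS3 siRNA replicate 1 or 3 (adjusted p = 0.0649 to 0.135). With the PHF12 siRNA the lowest adjusted p of the 4 in edgeR was 0.0610, that of AGO1 (log2 fold change -0.10), which passed without PHF12 siRNA replicate 1 (-0.14, adjusted p = 0.0235). The nuclear processing genes DROSHA and DGCR8 went in opposite directions with the SUDS3 siRNA, at 0.11 (edgeR adjusted p = 0.0288) and -0.24 (adjusted p = 9.15e-06), and neither passed with the PHF12 siRNA. The call of DROSHA ended with upper-quartile scaling and without control siRNA replicate 2 or SUDS3 siRNA replicate 1 or 3 (adjusted p = 0.0775 to 0.176). XPO5, which exports precursors, passed with the PHF12 siRNA (log2 fold change 0.087, edgeR adjusted p = 0.0427), but not with no filter on low counts, with limma on TPM or without control siRNA replicate 1 or 2 or PHF12 siRNA replicate 2 or 3 (adjusted p = 0.0641 to 0.186). KHSRP, a let-7 processing cofactor, fell with the SUDS3 siRNA (log2 fold change -0.11, edgeR adjusted p = 0.00220), and so did TARBP2, a partner of DICER1 (-0.24, adjusted p = 0.00383), though not without control siRNA replicate 2 (-0.18, adjusted p = 0.0580) or with limma on TPM (adjusted p = 0.0509). With the PHF12 siRNA TARBP2 stood near the threshold (log2 fold change 0.16, edgeR adjusted p = 0.0540). It passed there as higher in DESeq2, with upper-quartile scaling, no filter on low counts, a minimum count of 50 or counts divided by 4. It also passed with 2 groups, the replicate block, and without control siRNA replicate 2, PHF12 siRNA replicate 2 or SUDS3 siRNA replicate 2 or 3. These fits gave 0.16 to 0.22 (adjusted p = 0.0158 to 0.0468). TRIM25 passed in neither knockdown, and neither did PRKRA or HNRNPA1. PRKRA passed with the SUDS3 siRNA without control siRNA replicate 1 (-0.15, adjusted p = 0.0385). HNRNPA1 stood near the threshold with the SUDS3 siRNA (-0.066, adjusted p = 0.0501). It passed there with upper-quartile scaling, a minimum count of 50, counts divided by 4 and the replicate block, and without control siRNA replicate 3 or SUDS3 siRNA replicate 3 (-0.10 to -0.065, adjusted p = 0.00119 to 0.0485). HNRNPA1 passed as higher with the PHF12 siRNA in DESeq2, with upper-quartile scaling and without control siRNA replicate 1 (0.069 to 0.096, adjusted p = 0.00541 to 0.0432). TRIM71, an oncofetal ubiquitin ligase and let-7 target whose 3′ UTR holds 6 let-7 matches, moved in opposite directions. In SUDS3 siRNA libraries it fell to 24.1 CPM (log2 fold change -0.55, SE 0.07, edgeR adjusted p = 7.26e-08) and in PHF12 siRNA libraries it rose to 49.4 CPM (0.48, SE 0.07, adjusted p = 4.29e-07), against 35.3 CPM with the control siRNA. The host and primary transcripts of let-7 were scarce: 4 of 16 in the table were tested, MIRLET7D, MIRLET7BHG, MIR99AHG and LINC01465, at up to 3.48 CPM in a library. The lowest adjusted p was that of MIR99AHG with the SUDS3 siRNA (log2 fold change -0.66, edgeR adjusted p = 0.0561). It passed without control siRNA replicate 1 (-0.87, adjusted p = 0.0194) or SUDS3 siRNA replicate 1 (-0.79, adjusted p = 0.0499), and with upper-quartile scaling, a minimum count of 50 or counts divided by 4 (adjusted p = 0.0450 to 0.0481).

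Further lists place the 6 genes among their relatives. Of 8 tested HMGB and HMGN genes, which bind DNA or nucleosomes without the AT-hooks of the HMGA family, 4 fell (HMGB1, HMGN1, HMGN2 and HMGN4) and 4 did not pass with the SUDS3 siRNA, and 3 rose, 4 fell and 1 did not pass with the PHF12 siRNA, where 38.7% and 31.9% of all genes tested were called. HMGN2 fell to 255.9 CPM in SUDS3 siRNA libraries against 459.3 CPM in control siRNA libraries (log2 fold change -0.84, SE 0.03, edgeR adjusted p = 2.03e-22), and HMGB1 fell with the PHF12 siRNA (-0.34, SE 0.03, adjusted p = 1.16e-11). The fall of HMGN2 with the PHF12 siRNA (-0.075, adjusted p = 0.0474) ended in DESeq2, with upper-quartile scaling (-0.037), no filter on low counts, a minimum count of 50, a fit of 2 groups or limma on TPM, and without control siRNA replicate 1 or 3, PHF12 siRNA replicate 1 or 3 or any 1 of the SUDS3 siRNA libraries (adjusted p = 0.0502 to 0.387). HMGN2 and HMGB1 have processed pseudogenes that can share reads. Of 9 tested oncofetal genes, 1 rose and 7 fell with the SUDS3 siRNA (median log2 fold change -0.55), and 3 rose and 3 fell with the PHF12 siRNA (median 0.22). Over all genes tested 19.6% were higher and 19.2% lower with the SUDS3 siRNA (median -0.02), and 14.8% and 17.1% with the PHF12 siRNA (median -0.00). The 7 falls include the imprinted RNA gene H19, with 0 counts in the SUDS3 siRNA libraries and 12 in the control siRNA libraries. It had 60 counts in the PHF12 siRNA libraries, through which it passed the filter on low counts. The fall of H19 is therefore not read as a result. The median was -0.55 also without H19 and with H19 set to a floor of 3 counts over the group. PLAG1, an activator of IGF2, fell with the SUDS3 siRNA (log2 fold change -0.82, edgeR adjusted p = 1.35e-07) and with the PHF12 siRNA (-0.95, adjusted p = 7.98e-09). GPC3, a cell-surface glypican, fell with the SUDS3 siRNA (-0.36, edgeR adjusted p = 1.08e-06) and rose with the PHF12 siRNA (0.57, adjusted p = 2.95e-11). IGF2 itself, from whose mRNA the IGF2BP family takes its name, had 16 counts over the 9 libraries and was not tested.

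Of 16 tested transcripts or partners reported to be bound by IGF2BP proteins, 4 rose and 7 fell with the SUDS3 siRNA, and 2 rose and 7 fell with the PHF12 siRNA. These 11 and 9 of 16 stand beside 38.7% and 31.9% of all genes called. The 7 falls with the SUDS3 siRNA became 3 without SUDS3 siRNA replicate 2 and 4 with limma on the deposited TPM, and the 2 rises with the PHF12 siRNA became 4 with upper-quartile scaling. The actin gene ACTB, whose mRNA IGF2BP1 carries, fell with the PHF12 siRNA to 1590 CPM against 1872 CPM (log2 fold change -0.24, SE 0.03, edgeR adjusted p = 2.60e-08) and did not pass with the SUDS3 siRNA (-0.00, adjusted p = 0.999). ELAVL1, an mRNA-stabilising protein, also fell with the PHF12 siRNA (log2 fold change -0.32, edgeR adjusted p = 9.89e-10). SYNCRIP, which joins IGF2BP1 in protein complexes, rose with the SUDS3 siRNA (log2 fold change 0.24, edgeR adjusted p = 4.00e-08). Whether protein levels of the 6 genes moved with their transcripts was not measured.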

How the data were processed

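RNA-seq of 9 HEK293T libraries, 3 per siRNA, was analysed from 2 tables. The authors deposited counts, whole numbers per gene for 58735 Ensembl genes, and TPM, scaled by the authors for length and depth, for 58734 genes. Trimmomatic 0.36, HISAT2 2.1.0, HTSeq and GRCh38 are named in the submitters' processing notes. Libraries were stranded and poly-A selected, per the labels' protocols. GENCODE 29 gave symbols, coordinates and 3′ UTRs, and RefSeq gave let-7 sequences. Counts were filtered (filterByExpr, minimum count 10 by group), scaled by TMM and fitted with edgeR 4.0.16 in R 4.3.3 (robust quasi-likelihood F-test, 1 mean per group, all 9 libraries), with Benjamini-Hochberg adjustment over 18088 genes and a threshold of 0.05. The code was tested on simulated data. Alternatives used DESeq2 1.42.0, limma 3.58.1 on log2(TPM + 0.5), upper-quartile scaling, other filters, counts divided by 4, fits of 2 groups, a replicate block and leaving out each library.

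The length behind the deposited TPM (count over TPM) was unrelated to annotated gene length (Spearman's rho 0.0073 across 5362 genes with a mean count above 2000, which are not independent replicates), and 6.17% of 3562 genes with 1 transcript came within 10% of it. TPM was therefore not used to order genes. Within a gene, that length cancels between libraries. No 2 libraries of a group were identical. Over all genes tested, same-numbered libraries did not deviate together (correlations of -0.02 to 0.03 over 9 pairs), so no pairing was used. This need not hold for a single gene: HMGA1 fell from replicate 1 to replicate 3 in each group. A fit with a replicate block is given below.

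The members and gene lists were chosen with earlier results of these data known. Genes named beside the 6 and the siRNA targets follow 1 rule: tested genes within 500 kb of HMGA2 or overlapping a member, tested let-7 processing genes and primary transcripts, the 3 smallest p per comparison in each other list, and the 5 genes most like HMGA2 and 2 most like each other member. Not every gene that the rule takes is printed. LIN28A, IGF2, H19, PAX8 and the markers at 0 were named outside it after their values were seen.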

Additional observations from a re-analysis of the deposited data

How the results depend on the processing

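Of 272 values of the 6 genes under alternatives, HMGA2 in comparisons with PHF12 siRNA libraries left out, 267 stayed on their side of the threshold, 3 newly passed and 2 no longer passed. The sign changed in 1, that of HMGA2 with the SUDS3 siRNA without SUDS3 siRNA replicate 1 (-0.014), which passed in neither case. With the PHF12 siRNA, IGF2BP1 passed as higher in DESeq2 (log2 fold change 0.076), with upper-quartile scaling (0.10, adjusted p = 0.00556) and with limma on TPM (0.070, adjusted p = 0.0337), which makes 1 gene higher of 5 in each. HMGA1 with the PHF12 siRNA did not pass with limma on TPM (log2 fold change -0.15). Leaving out each library in turn gave it -0.19 to -0.12, where PHF12 siRNA replicate 3 ended the call, and gave 3 to 4 genes lower. A replicate block changed no call of the 6, with HMGA1 at -0.15 (adjusted p = 0.000136) with the PHF12 siRNA and IGF2BP1 at 0.064 (adjusted p = 0.0821), and gave 2740 genes higher and 3108 lower with the PHF12 siRNA. Of 4028 values of other named genes, 3916 stayed on their side, 46 newly passed and 66 no longer passed. Upper-quartile scaling moved the median of all genes by -0.03 with the SUDS3 siRNA and 0.04 with the PHF12 siRNA. The fold change of IGF2BP1 with the PHF12 siRNA is near this size of shift. On log2(TPM + 0.5), 4 of the 5 genes most like HMGA2 stayed, and 1 of the 2 most like HMGA1, IGF2BP1 and IGF2BP3 each. The cause of these changes was not tested.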
